A study of Mus musculus with 2 samples.

Results

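The 32 mouse genes described here make proteins of the Fanconi anaemia pathway and of homologous recombination. They were chosen by gene name, from their known role in repair, by a rule that uses no measured value, although earlier results of these data were known when the set was drawn up. All 32 were found among the 43346 Ensembl genes of the deposited gene tables. The study measured total RNA by sequencing in common myeloid progenitors, bone marrow cells from which red cells, platelets, granulocytes and monocytes descend. The 2 libraries, biological replicates 1 and 2, formed 1 group of male C57BL/6J mice, adults of 5 to 6 weeks, with no genetic change or treatment named in the labels. Both libraries carried the same donor label, so their spread may be partly technical. With 1 group there was no contrast between conditions and no p-value, and each value below is a level or a difference between these 2 libraries.

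The Fanconi pathway repairs crosslinks that join both strands of DNA and stop the replication fork. A core complex of Fanconi proteins, with the ubiquitin ligase FANCL, attaches ubiquitin to FANCD2 and FANCI, which then bring nucleases to cut the crosslink out. The resulting break is trimmed by nucleases, prepared for strand exchange by BRCA2 and its partners, and repaired from the sister chromatid. Inherited loss of genes of the Fanconi pathway is known for bone marrow failure, which places the pathway among those needed by blood-forming cells.

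Libraries held 28158803 and 84041054 expected counts (estimated reads) over Ensembl genes, so replicate 2 was 2.98 times deeper. The lowest count of any of the 32 genes was 133 in replicate 1 and 327 in replicate 2. Levels between genes are compared as TPM, the authors' abundance scaled to the library after correction for transcript length. Of the markers used to check the label, 6 of 6 progenitor genes were at 1 TPM or more in both libraries, with Mpo, the myeloperoxidase gene, at 314.33 and 399.28 TPM. None of 7 lymphoid genes and none of 6 genes of mature blood cells reached that level, and of 6 stromal and vessel genes only Pecam1 did, at 8.76 and 12.62 TPM. Pax5, Ms4a1, Cd3e, Cd8a, Ncr1, Col1a1 and Cdh5 were listed at 0 TPM in both libraries. In bulk RNA, fewer cells of a type and less RNA per cell cannot be told apart.

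RNA of the pathway was present throughout: 31 of the 32 genes were at 1 TPM or more in both libraries, against 42.5% of nuclear protein-coding genes. Rad51c was the exception. Above that level, 13 genes reached 5 TPM in both libraries (24.7% of protein-coding genes) and 6 reached 10 TPM (15.0%). The median gene stood at 4.76 TPM in replicate 1 and 6.315 TPM in replicate 2. The 2 medians averaged 5.54 ± 1.10 TPM (SD, n = 2). The median over protein-coding genes at 1 TPM or more in both libraries was 7.24 ± 0.75 TPM, and the median of the 32 genes lay below it in each library, at 4.76 against 6.71 TPM and 6.315 against 7.77 TPM. Their percentiles among protein-coding genes ran from 53.5 for Rad51c in replicate 2 to 97.0 for Usp1 in replicate 2. Across the 32 genes, the order of TPM in the libraries was alike, with a Spearman rho of 0.863, given as a description over genes that share 2 libraries.

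**Figure D1:**
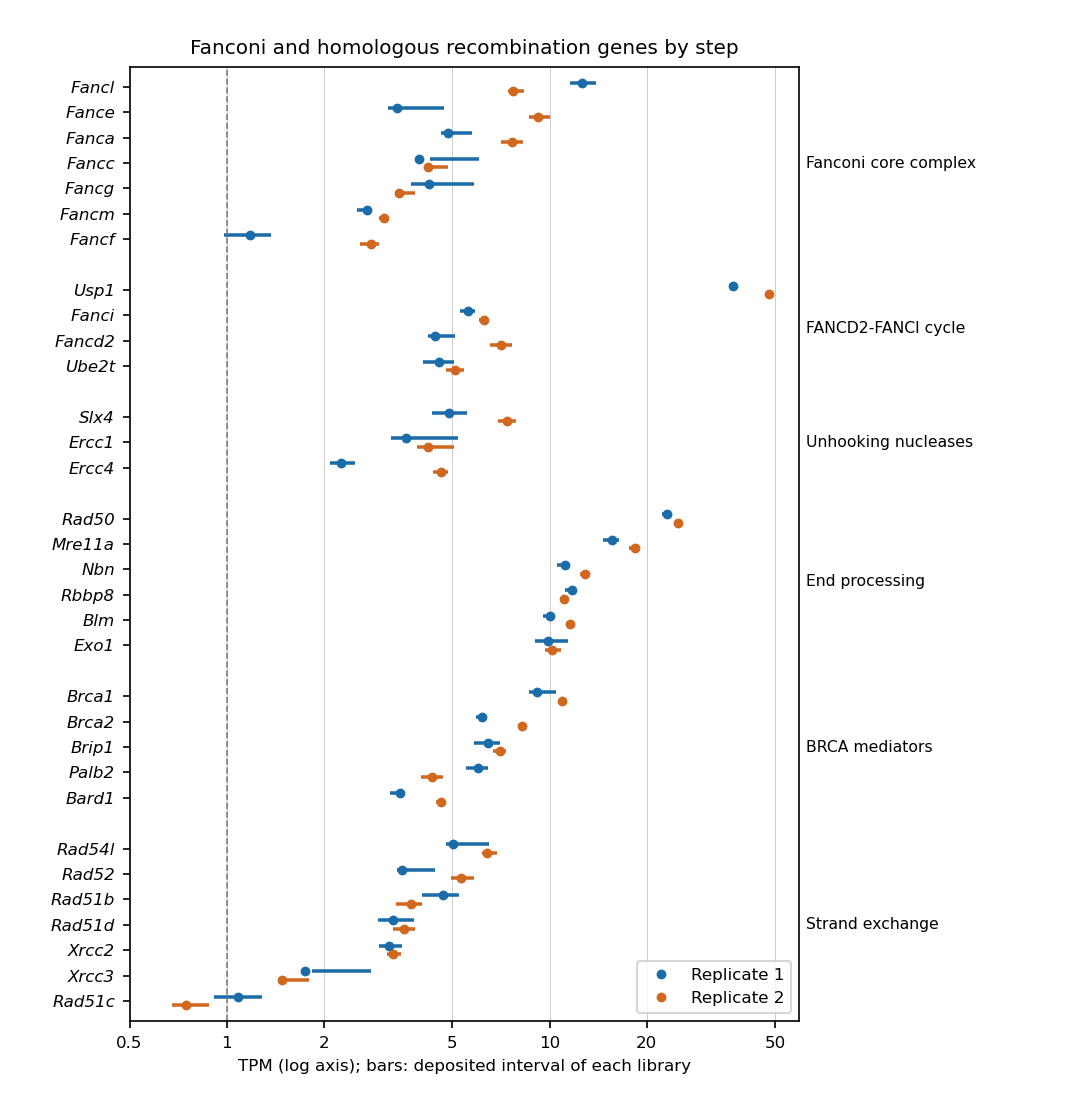
TPM of each of the 32 genes (log axis) in replicate 1 and replicate 2, grouped by step of repair and sorted by mean TPM within a step. Bars span the lower and upper bounds deposited for each library, the dashed line marks 1 TPM, and the points of Fancc and Xrcc3 in replicate 1 lie below their own bars. The 6 end-processing genes sit near or above 10 TPM, and Rad51c is the only gene with a point below 1 TPM.

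The core complex recognises the blocked fork and carries the ligase. Its 7 genes had a median of 3.94 and 4.19 TPM in the 2 libraries, and all 7 were at 1 TPM or more. Fancl, the ligase subunit, was the highest of them at 12.63 TPM in replicate 1 and 7.73 TPM in replicate 2. Its deposited intervals, 11.6 to 13.9 TPM and 7.44 to 8.32 TPM, did not overlap, and replicate 1 was the higher library. Fanca, a scaffold of the complex, was at 4.83 and 7.64 TPM. Fancg, its direct partner, was at 4.23 and 3.42 TPM, so by TPM Fanca was 1.14 times Fancg in replicate 1 and 2.23 times in replicate 2. By CPM (counts scaled to the library total) the gap was narrower in replicate 2, with Fanca at 39.06 and 35.45 and Fancg at 12.5 and 16.96. Effective lengths moved in opposite directions, from 2987.46 to 2001.73 bases for Fanca and from 1092.36 to 2139.69 bases for Fancg. Fanca stood above Fancg by both measures in both libraries. Fancm, the helicase that anchors the complex to DNA, was at 2.71 and 3.08 TPM. Fancc, which links the subunits FANCE and FANCF, was at 3.94 and 4.19 TPM. For Fancc in replicate 1 the deposited interval, 4.25 to 6.03 TPM, lay wholly above the deposited TPM, and its posterior mean TPM was 5.08.

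Fancf and Fance, which sit together with Fancc in the complex, showed the widest ratios between libraries by TPM. Fancf (chr7:51860577-51862267, minus strand, GRCm38) was at 1.18 TPM from 133 counts in replicate 1 and at 2.80 TPM from 811 counts in replicate 2. It was the only gene of the 32 to differ at least 2-fold by reads, 2.05 times higher in replicate 2 by CPM (counts scaled to the library total), a log2 ratio of 1.03. Over all genes with a mean count of at least 10, 20.8% differed that far, 13.4% being higher in replicate 2 and 7.4% in replicate 1. Over protein-coding genes with a mean count of at least 100, 5.18% did. Fancf has 1 transcript model, and 253 of its 1691 exon bases are shared with Gas2 on the opposite strand, which held 226 and 654 counts. Whether the authors' counting used strand is not given in the sources used here, so reads there could belong to either gene. Fance was at 3.38 TPM from 241 counts and 9.23 TPM from 909 counts. By TPM it was 2.73 times higher in replicate 2, but by CPM 1.27 times, because its effective length was set at 935.58 bases in replicate 1 and 505.64 bases in replicate 2.

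The next step is the FANCD2-FANCI cycle of ubiquitin attachment and removal. Fancd2, which with Fanci clamps onto DNA, was at 4.42 and 7.07 TPM. Fanci was at 5.57 and 6.25 TPM. By gene TPM the order of these 2 clamp genes changed between libraries, with a Fancd2 to Fanci ratio of 0.794 in replicate 1 and 1.13 in replicate 2. By CPM Fancd2 was the lower in both, at 51.17 against 64.07 and 59.38 against 62.20. It was also lower on full-length coding models, with Fancd2-201 at 3.47 and 4.52 TPM and Fanci-201 at 5.13 and 5.77 TPM. Ube2t, the conjugating enzyme that feeds FANCL, was at 4.53 and 5.11 TPM.

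Usp1, the deubiquitinase that takes ubiquitin off FANCD2 again, was the highest gene of the whole set (chr4:98923810-98935543, plus strand). It was at 37.09 TPM from 9390.2 counts in replicate 1 and 47.77 TPM from 30982.98 counts in replicate 2. That is 8.19 and 9.35 times the level of Ube2t in the same libraries, a gap far wider than the spread between libraries. Usp1 alone made up 16.1% and 17.7% of the summed TPM of the 32 genes. It was also the only one of the 32 whose counts were not whole numbers to within 0.005, so the authors' estimate divided some reads between Usp1 and entries that are not named in the tables. Full-length coding models held all of its TPM, with Usp1-202 at 30.89 and 42.12 TPM.

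The nucleases that unhook the crosslink were at lower levels. Slx4, the platform on which they assemble, was at 4.89 and 7.39 TPM. Ercc4 and Ercc1, the 2 subunits of the XPF-ERCC1 endonuclease, were at 2.26 and 4.62 TPM and at 3.60 and 4.20 TPM. Ercc4 was 0.628 times Ercc1 in replicate 1 and 1.10 times in replicate 2, so again no order of the partners held in both libraries by gene TPM. On full-length coding models Ercc4 was above Ercc1 in both, with Ercc4-201 at 1.73 and 2.61 TPM and Ercc1-201 at 1.49 and 1.57 TPM. By CPM, Ercc4 was 1.49 times higher in replicate 2.

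Genes that process broken ends formed the highest group. All 6 reached 5 TPM and 5 reached 10 TPM in both libraries, and their median was 11.85 ± 0.541 TPM (SD, n = 2), against 3.42 to 6.61 TPM for the mean medians of the other 5 steps. Rad50, the ATPase of the MRN complex that tethers ends, was at 23.03 and 25.01 TPM (chr11:53649519-53707319, minus strand). Mre11a, its nuclease, was at 15.57 and 18.44 TPM. Nbn, the subunit that signals to the ATM kinase, was at 11.18 and 12.88 TPM. By gene TPM the order Rad50, Mre11a, Nbn was the same in both libraries, and no deposited interval of one overlapped that of another within a library. Mre11a stood above Nbn only with Mre11a-204 included, a model of 793 bases. It held 32.5% and 42.4% of Mre11a TPM but 6.83% and 9.97% of its counts. The longer models were at 7.26 and 6.88 TPM (Mre11a-201) and 3.25 and 3.75 TPM (Mre11a-202), and Nbn-201 was at 11.18 and 12.87 TPM. Rad50 was 2.06 and 1.94 times Nbn, and 1.48 and 1.36 times Mre11a.

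By gene TPM the other end-processing genes were close to each other. Rbbp8, which encodes the resection factor CtIP, was at 11.76 and 11.12 TPM. Exo1, a long-range resection exonuclease, was at 9.87 and 10.15 TPM, just under 10 TPM in replicate 1. Its full-length coding model Exo1-201 was at 3.88 and 4.39 TPM and held 88.2% and 90.2% of its counts. By TPM, Exo1 thus stood near Rbbp8 and Blm only with its short models included. Blm, the helicase lost in Bloom syndrome, was at 10.05 and 11.59 TPM. Blm was 0.855 times Rbbp8 in replicate 1 and 1.04 times in replicate 2, and 1.02 and 1.14 times Exo1, so the order of Blm and Rbbp8 did not hold in both libraries. By CPM all 6 end-processing genes were lower in replicate 2, while 52.7% of protein-coding genes with a mean count of at least 10 were higher. The differences were small, with log2 ratios from -0.31 for Rbbp8 to -0.009 for Nbn.

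Mediators prepare the resected end for strand exchange. Brca1, which with Bard1 forms a ubiquitin ligase, was the highest of the 5 at 9.12 and 10.90 TPM. Bard1 was at 3.44 and 4.62 TPM, so Brca1 was 2.65 and 2.36 times its obligate partner. Brca2, a central mediator of recombination, was at 6.19 and 8.20 TPM. Palb2, the bridge from BRCA1 to BRCA2, was at 6.01 and 4.33 TPM and was higher in replicate 1. By gene TPM Brca2 and Palb2 were nearly level in replicate 1, at a ratio of 1.03, and apart in replicate 2, at 1.89. Full-length coding models held 100.0% of Brca2 TPM but 51.7% and 45.2% of Palb2 TPM. On those models Brca2 stood further above Palb2 in both libraries. Brip1, the helicase FANCJ, was at 6.45 and 7.02 TPM with intervals that overlapped between libraries.

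The 7 genes of strand exchange had the lowest median, 3.415 ± 0.191 TPM (SD, n = 2). Rad51c (chr11:87376645-87404954, minus strand) was the lowest gene of the set at 1.08 TPM from 197 counts in replicate 1 and 0.75 TPM from 327 counts in replicate 2. Rad51b was at 4.69 and 3.72 TPM, 4.34 and 4.96 times Rad51c, although both proteins sit in the BCDX2 complex. The comparison rests on model length: the deposited length of Rad51b-202, which held most Rad51b TPM, was 829 bases, shorter than the 1050 coding bases of that model in GENCODE M21. By reads the genes were closer, with 8.49 and 5.80 CPM for Rad51b and 7.0 and 3.89 CPM for Rad51c. The other BCDX2 members are encoded by Rad51d and Xrcc2. By gene TPM they did not differ beyond the spread between libraries, at 3.28 and 3.55 TPM and at 3.19 and 3.28 TPM. On full-length coding models Xrcc2 was the higher in both. Xrcc2-201 was at 3.18 and 2.81 TPM and Rad51d-201 at 0.50 and 1.73 TPM. Xrcc3, which pairs with the Rad51c protein in the CX3 complex, was at 1.75 and 1.48 TPM, and its TPM in replicate 1 was below its deposited interval of 1.83 to 2.79. Rad52, a single-strand annealing protein, was at 3.50 and 5.33 TPM. Rad54l, a translocase that helps the broken strand invade the sister duplex, was at 5.03 and 6.38 TPM.

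Differences between the libraries depended on whether reads or TPM were read. By CPM, 14 of the 32 genes were higher in replicate 2, against 52.7% of protein-coding genes with a mean count of at least 10. The median log2 ratio of replicate 2 over replicate 1 was -0.02, beside 0.02 for those protein-coding genes. By TPM, 25 were higher in replicate 2, against 70.4%, with a median of 0.19 beside 0.22. Deposited TPM intervals did not overlap between libraries for 21 of the 32 genes, against 63.2% of genes with a mean count of at least 10 and 66.0% of protein-coding genes with a mean count of at least 100. Replicate 2 was the higher library for 17 of them (47.2% of all genes). Replicate 1 was higher for Fancl, Palb2, Rad51c and Xrcc3 (15.9%). The lowest log2 CPM ratio was -0.84, for Rad51c. The share of genes with separate intervals was thus close to that of all genes.

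**Figure D2:**
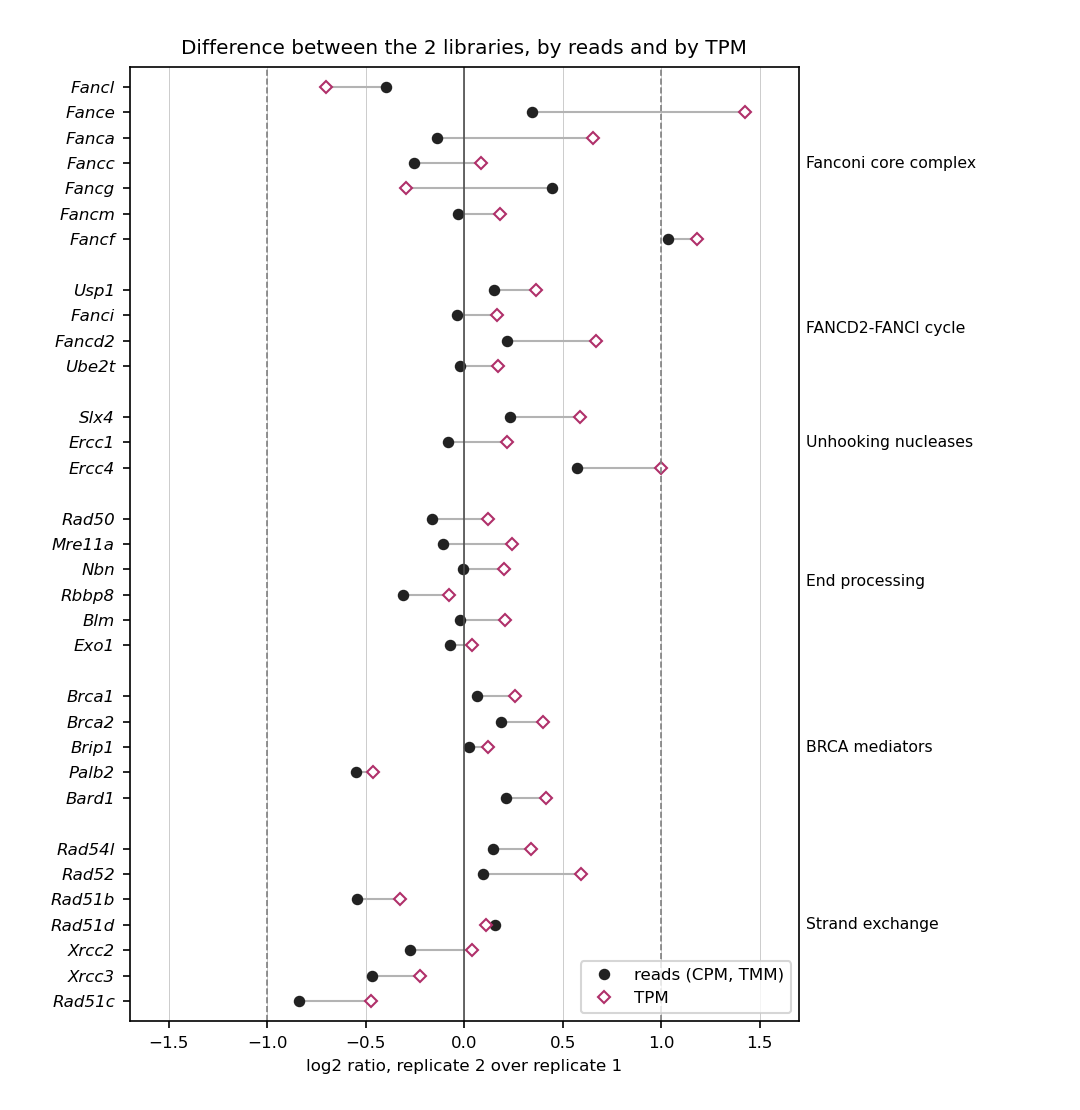
Log2 ratio of replicate 2 over replicate 1 for each of the 32 genes, from reads (filled circles, CPM after TMM scaling) and from TPM (open diamonds), with dashed lines at a 2-fold difference. Fancf alone passes the line by reads, at 1.03, while by TPM Fance at 1.42 and Fancf at 1.18 lie past it and Ercc4 lies on it at 1.00.

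The authors' estimates divided the reads of each gene among annotated transcript models. Each model was classed by the annotation as coding with a full frame (at least 90% of the gene's longest coding sequence), coding with a shorter frame, nonsense-mediated decay, retained intron or other non-coding. In 25 of the 32 genes the same model held the largest share of TPM in both libraries (82.1% of protein-coding genes with at least 100 counts in each library). A protein-coding model led in each library, whether or not it was the same one, in 25 genes, against 86.5%. These were not the same 25 genes: Mre11a and Palb2 changed between coding models, and Rad51c and Rad54l kept a non-coding one or one marked for decay. The genes without a coding leading model in both were Fancc, Fance, Fancg, Rad51c, Rad51d, Rad52 and Rad54l. Among the 28 genes with 2 or more models, each count was 21, against 76.0% and 82.1% of such genes. Full-frame models led in both libraries in 23 of the 32 genes, against 77.0%.

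The full-frame share of a gene's TPM had a median of 78.0% and 79.7% over the 32 genes, beside 95.0% and 92.1% over protein-coding genes. By expected counts the medians were 92.8% and 90.1%, beside 98.1% and 97.1%. Among genes with 2 or more models, the TPM medians were 73.9% and 61.5% for the 28 genes and 78.5% and 77.0% for protein-coding genes. Short models weigh more in TPM than in reads: for Exo1, full-frame models held 39.3% and 43.3% of TPM but 88.2% and 90.2% of counts. Under 50% of TPM was on full-frame models in both libraries for Ercc1, Exo1, Fance, Rad51c, Rad51d, Rad52 and Slx4, 21.9% of the 32 genes beside 16.5% of protein-coding genes. Under 50% of counts was on them for Rad51c, Rad52 and Rad54l, 9.38% beside 9.63%. Rad51c and Rad52 were low by both measures.

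Rad51c in both libraries, and Rad52 in replicate 1, were led by models annotated for nonsense-mediated decay, the pathway that degrades RNA with an early stop codon. The exons that set these models apart from the coding models, and the stretches that hold their early stops, are shown read 5′ to 3′ on the strand of the gene from the GENCODE M21 transcripts (GRCm38). Rad51c-204 holds an extra exon, its exon 8 (chr11:87388248-87388327, minus strand, 80 bases), between exons that follow each other in the coding model Rad51c-202. Rad52-206 skips exon 4 of the coding model Rad52-212 (chr6:119913899-119913992, plus strand, 94 bases), and its next exon then reaches a stop codon after 51 bases (chr6:119914170-119914223). The M21 models shown carry other version numbers than the deposited ones, so their exons may differ from those that were quantified. Capitals mark the stop codon of the decay model.
Rad51c-204 extra exon: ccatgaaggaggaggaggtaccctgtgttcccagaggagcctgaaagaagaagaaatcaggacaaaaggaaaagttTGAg
Rad52-212 exon absent from Rad52-206: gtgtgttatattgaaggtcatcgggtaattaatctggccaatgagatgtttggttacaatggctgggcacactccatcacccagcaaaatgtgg
Rad52-206 next exon up to its stop: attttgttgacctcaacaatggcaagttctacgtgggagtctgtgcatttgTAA

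The decay model Rad51c-204 was at 0.77 TPM from 108.33 counts in replicate 1 and 0.59 TPM from 214.97 counts in replicate 2. The coding model Rad51c-202 was at 0.31 TPM from 88.67 counts and 0.15 TPM from 112.03 counts. Decay models thus held 71.3% and 79.7% of Rad51c TPM, and 55.0% and 65.7% of its counts. Rad52-206 was at 2.74 TPM from 289.96 counts and 1.86 TPM from 507.41 counts, 78.3% and 34.9% of Rad52 TPM. Rad52-213, a retained-intron model of 676 bases, was at 0.71 and 2.04 TPM and led in replicate 2. The coding model Rad52-212 was at 0.05 TPM in replicate 1 and was listed at 0 in replicate 2, and full-frame models held 1.43% and 0.563% of Rad52 TPM. Up to its early stop, the frame of Rad51c-204 is 92.3% as long as that of Rad51c-202. The frame of Rad52-206 is 19.0% as long as that of Rad52-212. These lengths count bases of the extra exon in Rad51c-204, and bases read in a shifted frame after the skip in Rad52-206. The share of the coding model's own frame that remains is therefore smaller. The split of reads among models is the authors' estimate, and no count of reads over these junctions was used here.

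Rad54l in both libraries, and Fancc in replicate 2, were led by models that keep introns. Rad54l-204, a processed transcript of 4571 bases that retains 2 introns, was at 2.17 and 2.77 TPM and held 56.3% and 55.9% of Rad54l counts. Of its 4571 exon bases, 1184 (25.9%) are shared with Lrrc41 on the opposite strand, which held 654 and 2755 counts. The coding models Rad54l-202 at 1.80 and 1.98 TPM and Rad54l-201 at 0.87 and 1.54 TPM share 128 and 69 bases with Lrrc41. Fancc-205, which retains an intron of 1220 bases, held 38.1% of Fancc TPM in replicate 1 and 56.5% in replicate 2. Fancc-214, the coding model, was at 2.20 and 1.21 TPM. Of the exon bases of Fancc-205, 53.6% are shared with Gm16133 on the opposite strand, which was listed at 0 counts in both libraries.

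In Rad51d the leading model changed class between libraries. Rad51d-205, a decay model that skips an exon of 71 bases, was at 1.07 TPM in replicate 1 and listed at 0 in replicate 2. Rad51d-201, the full-frame model, was at 0.50 and 1.73 TPM. Mre11a-204 and Slx4-208 are coding models with only 28.8% and 6.50% of the frame, at 5.07 and 7.81 TPM and at 2.10 and 3.86 TPM. Full-frame Mre11a models held 93.2% and 90.0% of its counts, and those of Slx4 held 29.0% and 51.8%. In Palb2 the leading model was Palb2-203 in replicate 1, at 3.11 TPM, and Palb2-202 in replicate 2, at 1.31 TPM. Bard1, Brca2, Fancf and Fancm each have 1 model, and for Blm, Rbbp8 and Usp1 full-frame models held 100.0% of TPM in both libraries.

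**Figure D3:**
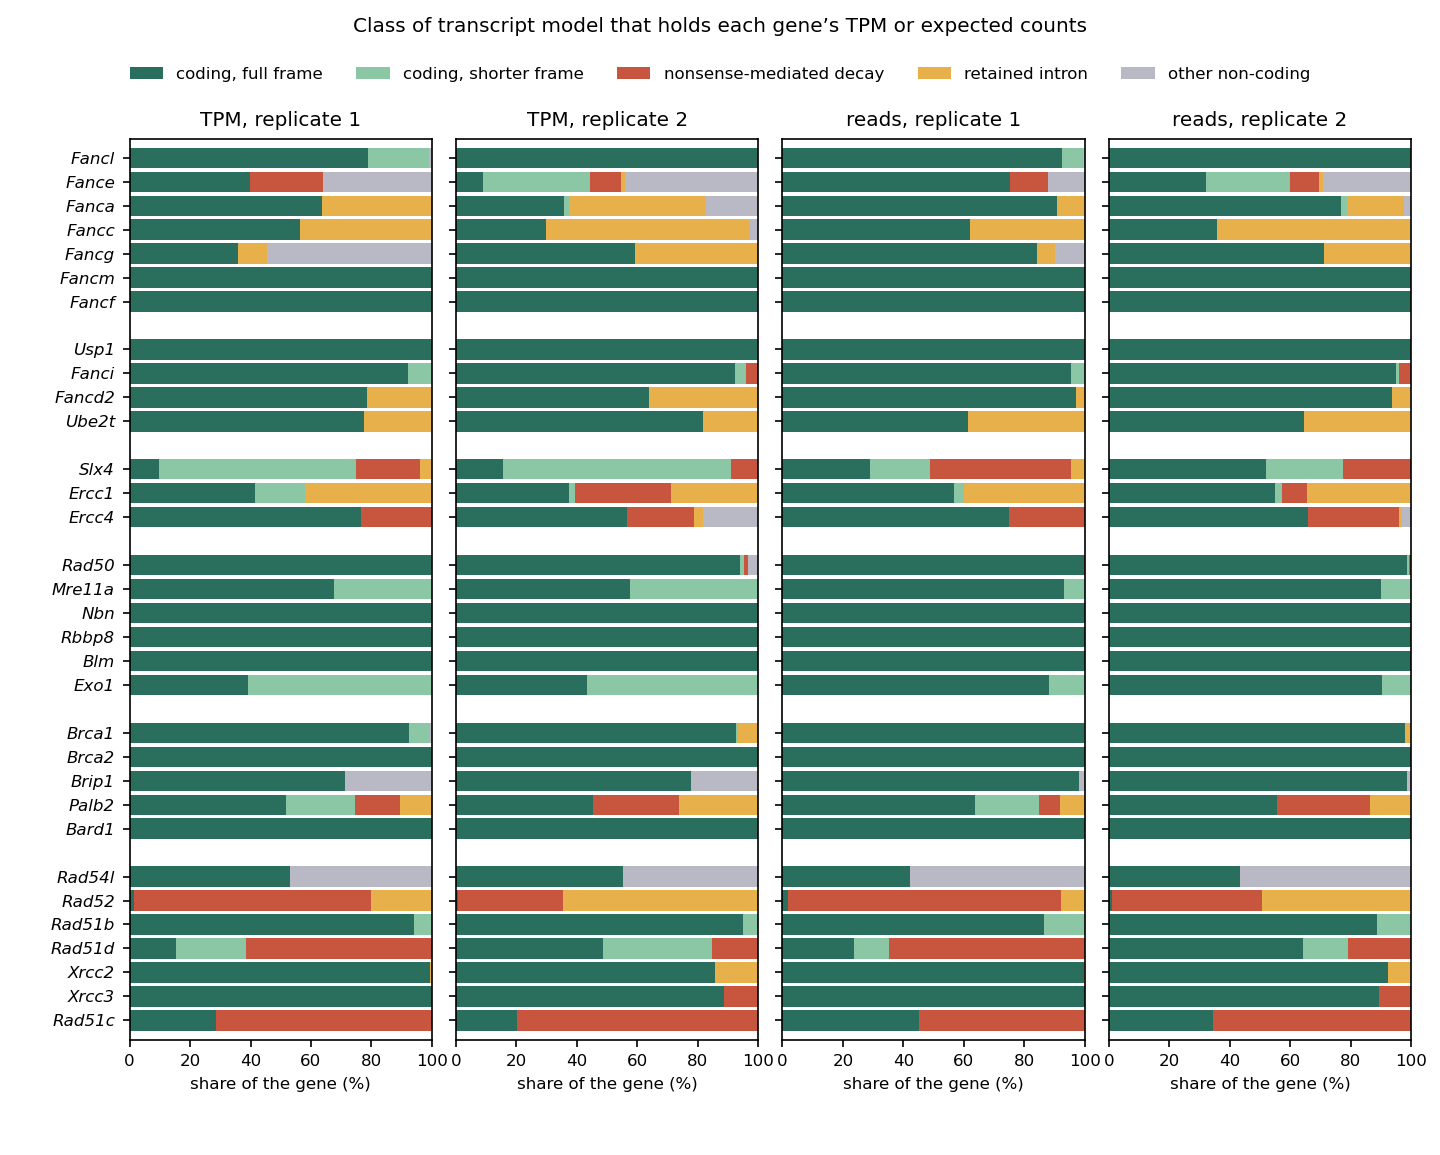
Share of each gene's TPM (left pair of panels) and expected counts (right pair) on each class of transcript model, in replicate 1 and replicate 2, in the gene order of the plot of TPM by step. Rad52 has almost no full-frame share in any panel, Rad51c is led by decay models in each panel, and the full-frame share of Exo1 in replicate 1 is 39.3% of TPM and 88.2% of counts.

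Exons of 15 of the 32 genes overlap exons of another annotated gene, each time on the opposite strand. Over protein-coding genes, 29.5% overlap another gene on either strand, and over those at 1 TPM or more in both libraries 38.3% do, beside 15 of 31. The protein-coding neighbours with the most shared bases were Lrrc41 (1184 bases with Rad54l), Polg (921 with Fanci), Zfp276 (920 with Fanca) and Vrk2 (462 with Fancl). Vrk2 held 1330 and 3035 counts against 1034 and 2338 for Fancl, whose model Fancl-201 shares 17.0% of its bases with Vrk2. The part of this overlap in the levels was not tested.

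Several of these genes start close to a neighbour. Of the 32, 7 had the start of another protein-coding gene on the opposite strand within 1000 bases, pointing away, against 6.83% of protein-coding genes. Among genes at 1 TPM or more in both libraries the count was 6 of 31, against 12.0%. Within 500 bases it was 6 of 32, against 6.21%, and 5 of 31 expressed genes, against 11.2%. Fancd2 and Emc3, an ER membrane complex subunit gene, start 30 bases apart and were at 4.42 and 7.07 TPM and at 5.86 and 8.18 TPM. Palb2 and Dctn5, a dynactin subunit gene, start 56 bases apart, with Dctn5 at 11.51 and 12.04 TPM. Brca1 and Nbr1, an autophagy receptor gene, start 194 bases apart, with Nbr1 at 9.84 and 13.76 TPM. Rad54l lies 150 bases from Pomgnt1 (2.95 and 3.55 TPM), and Xrcc3 lies 297 bases from Zfyve21 (2.41 and 1.83 TPM). Rad51b, at 4.69 and 3.72 TPM, lies 978 bases from Zfyve26 (0.83 and 1.56 TPM). Rad51c starts 111 bases from Tex14, a gene known for its role in germ cells. Tex14 was at 0.21 and 0.06 TPM, the lowest of the 7 neighbours. Whether the levels of such pairs go together was not tested.

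Promoter sequence was available for 24 of the 32 genes, in 27 windows of 300 bases (250 before and 50 after the start) from RefSeq on GRCm38.p6. Windows were searched on both strands for TTTCCCGC, TTTGGCGC, TTTGCCGC and TTTCGCGC, the letters of sites known for E2F factors, which drive genes of DNA synthesis. At least 1 match stood in windows of Bard1, Brca2, Fancg and Rad51c, 4 of 24 genes, against 3.29% of protein-coding genes with a window. By window the count was 5 of 27, against 2.26% of all windows of 300 bases. Among genes at 1 TPM or more in both libraries it was 3 of 23, against 5.29%. The stretches are shown because they hold the matches found among the 24 genes searched, read 5′ to 3′ in the direction of the gene, with the match in capitals.
Bard1 (chr1:71103148-71103207, minus strand): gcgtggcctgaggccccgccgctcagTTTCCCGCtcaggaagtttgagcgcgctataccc
Brca2 (chr5:150522427-150522486, plus strand): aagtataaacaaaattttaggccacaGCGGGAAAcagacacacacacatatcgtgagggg
Fancg (chr4:43010320-43010379, minus strand): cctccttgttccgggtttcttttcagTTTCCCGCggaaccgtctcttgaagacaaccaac
Rad51c, start nearer the coding sequence (chr11:87404477-87404506, minus strand): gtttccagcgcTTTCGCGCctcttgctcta
Rad51c, upstream start (chr11:87404941-87404970, minus strand): cccccgcgaggGCGGGAAAagcaaggggtc

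The matches begin 209 bases before the RefSeq start of Bard1, 168 before that of Brca2 and 52 before that of Fancg. Genes with a match did not share a level: Brca2 was at 6.19 and 8.20 TPM and Rad51c at 1.08 and 0.75 TPM. A match describes letters, and no binding was measured. The ratio of observed to expected CpG had a median of 0.878 over the 27 windows, beside 0.61 over protein-coding windows.

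Other genes of the same pathway, 42 in a second list, were at a median of 7.60 ± 1.04 TPM (SD, n = 2), and 40 of them were at 1 TPM or more in both libraries. The highest were Uhrf1, a sensor of crosslinks and of methylated DNA, at 29.53 and 36.56 TPM, Rpa1 at 28.80 and 35.00 TPM, Rif1 at 31.25 and 32.24 TPM, Sem1 at 28.80 and 25.41 TPM, and Rpa3 at 23.53 and 28.63 TPM. Rpa1 and Rpa3 encode subunits of the single-strand binding complex that coats resected ends, and Sem1 encodes a small partner of BRCA2. The lowest were the nuclease gene Fan1 at 1.06 and 1.5 TPM, the recombination gene Swsap1 at 1.43 and 0.81 TPM, and Slx1b, the nuclease partner of Slx4, at 1.26 and 0.75 TPM. With all its models, Slx4 stood above Slx1b in both libraries, 4.89 against 1.26 TPM and 7.39 against 0.75 TPM. The full-frame model Slx4-201 alone was at 0.47 and 1.15 TPM, below Slx1b in replicate 1 and above it in replicate 2.

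Genes of non-homologous end joining, the other route of break repair, had a median of 3.95 ± 0.276 TPM (SD, n = 2), and 7 of 10 were at 1 TPM or more in both libraries. By TPM Xrcc6, the KU70 subunit that binds ends, stood apart at 84.46 and 95.47, above all 32 Fanconi and recombination genes. By counts, which are not corrected for length, it held 3926 and 12602. Usp1, Rad50, Brca2 and Brca1 each held more in both libraries, and the other genes of the 32 held fewer. Lig4, the ligase of this route, was at 0.05 and 0.51 TPM, below all 32 by TPM. Its 379 counts in replicate 2 stood above the 327 of Rad51c. Genes of the replication fork had a median of 23.36 ± 4.15 TPM, with 21 of 21 at 1 TPM or more, and Pcna, the sliding clamp, was at 130.40 and 143.52 TPM. The Fanconi and recombination median lay below that of the fork genes in each library, 4.76 against 20.42 TPM and 6.315 against 26.29 TPM. Usp1 stood above the fork median in both libraries, and Rad50 only in replicate 1, at 23.03 TPM.

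**Figure D4:**
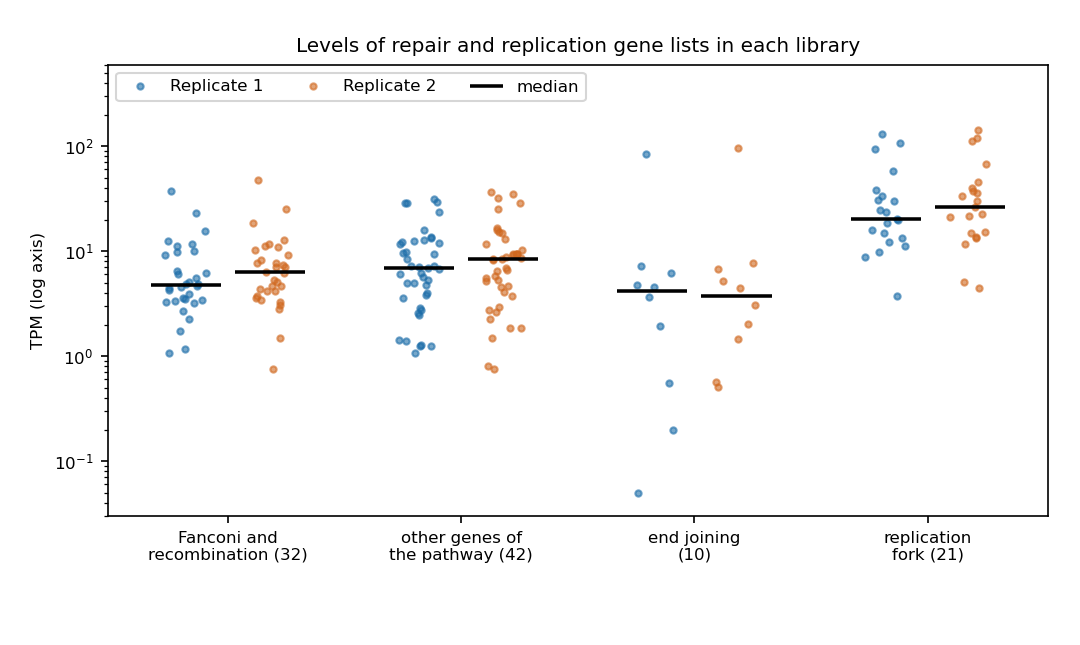
TPM (log axis) of each gene in the 4 lists, with 1 point per gene and library and a black line at the median of each library. The Fanconi and recombination genes centre on 4.76 and 6.315 TPM, below the fork genes at 20.42 and 26.29 TPM, and the end-joining list spans the widest range, from Lig4 at 0.05 to Xrcc6 at 95.47 TPM.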

How the data were processed

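Gene and transcript tables of 2 total RNA libraries were used. Per the labels, a ScriptSeq kit and 100 ng of rRNA-depleted RNA were the input. Each library's readme names mm10 and GENCODE M4. Aligner and quantifier are not given in the sources used here. The authors deposited expected counts, estimated reads that need not be whole, with TPM, posterior mean TPM and FPKM, per the file headers. The bounds of TPM and FPKM were also deposited and were treated as signal, that is, values that are never negative. TPM covers every entry deposited, structural RNAs included. GENCODE M21 (GRCm38) gave names, model classes, coding frames and coordinates, and 42462 genes matched. Of 192 transcript models of the 32 genes, 191 matched and 87 had the same version, so some classes may differ from those of M4.

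The 32 genes, their steps and the other lists were chosen with earlier results of these data known. By the rule used, any of the 32 genes could be named, other lists gave their 5 highest and 3 lowest genes by mean TPM, and partners were compared within a step. Slx1b against Slx4, genes that overlap or neighbour the 32, and the exons shown were singled out after their values were seen. Entries other than Ensembl genes stayed out of library sizes.

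Counts were rounded to whole numbers and scaled with TMM in edgeR 4.0.16, with DESeq2 1.42.0 size factors as the alternative, in R 4.3.3. Log2 CPM ratios used a prior count of 0.5, and log2 TPM ratios a pseudocount of 0.1. Counts of genes were set beside the same count over all genes, with no test. The ratio script was tested on simulated data. Alternatives were posterior mean TPM, FPKM, TPM rescaled to protein-coding genes, other minimum levels and counts, a prior count of 2, other motif letters and each library alone. Shares by expected counts and a neighbour distance of 500 bases were chosen after seeing the data. Depth limits precision, and the labels name no molecular identifiers, so reads may repeat molecules.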

Additional observations from a re-analysis of the deposited data

How the results depend on the processing

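No paired analysis was possible because all samples belong to 1 group. The number of genes that differed at least 2-fold between libraries was 1 (Fancf) with TMM, with DESeq2 size factors, without a count filter and with a prior count of 2, and 3 (Fancf, Fance and Ercc4) by TPM, where effective lengths also differ between libraries. The number at 1 TPM or more in both libraries was 31, ran from 29 (at least 2 TPM) to 32 (FPKM, or TPM rescaled to protein-coding genes), and was 32 without replicate 2 and 31 without replicate 1. The median was 4.76 TPM without replicate 2 and 6.315 TPM without replicate 1. Separate intervals fell from 21 to 19 genes with FPKM bounds. Coding leading models numbered 24 by posterior mean TPM and 27 in each library alone. Posterior mean TPM moved 4 of 32 levels past the spread between libraries: Fancc to 4.79, Ercc1 to 4.33, Exo1 to 10.23 and Xrcc3 to 1.96 TPM. The median full-frame share rose from 78.8% of TPM to 91.5% of counts. Divergent neighbours numbered 7 within 1000 bases and 6 within 500 bases. Rescaling TPM cannot change a percentile, so it gave no value. With 2 libraries, an SD is a rough guide to spread, and replicate 1 holds the lower counts, so the isoform shares of Rad51c and Rad52 rest on 197 and 321 counts there.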
